A study of Arabidopsis thaliana with 116 samples.

Results

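The genes described here are 10 tau class glutathione transferases of Arabidopsis thaliana, out of 27655 genes in the count table. They were chosen by locus identifier: GSTU1 (AT2G29490), GSTU2 (AT2G29480), GSTU3 (AT2G29470), GSTU4 (AT2G29460), GSTU5 (AT2G29450), GSTU6 (AT2G29440) and GSTU7 (AT2G29420), which form a tandem cluster, with GSTU19 (AT1G78380), GSTU24 (AT1G17170) and GSTU25 (AT1G17180). The choice of the family also drew on a measured value, the strong change of GSTU2 over time in root controls, which is therefore given below as a description with no test. All 10 genes passed the filter on low counts in both tissues. Wild-type seedlings of strain Col-0 were grown for 5 days and were then moved to agar with 2 µM abscisic acid (ABA), to agar with 150 µM salicylic acid (SA), or to the same medium with no hormone (control). Roots and shoots were cut apart and harvested separately, before transfer (0 h, controls alone) and 1, 2, 4, 7, 24 and 48 h after it. Each of the 38 groups of tissue, treatment and time held 3 libraries of poly(A) RNA, except the 0 h controls, which held 4 in each tissue, so that 58 libraries were used per tissue. Every library holds the RNA of a whole organ, so fewer cells of a type and less RNA per cell cannot be told apart.

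Glutathione transferases join the tripeptide glutathione to reactive, electrophilic compounds, which are then moved into the vacuole and broken down. The tau class is specific to plants, is encoded largely in tandem clusters, and is best known for detoxifying herbicides and other foreign compounds and for its response to stress. ABA is the hormone of drought and salt responses, whereas SA acts in defence against pathogens, in part through TGA transcription factors that bind DNA with the core TGACG. GSTU19 is known from its response to herbicide safeners, and GSTU24 and GSTU25 conjugate glutathione to the explosive trinitrotoluene. GSTU7 has been linked to tolerance of the herbicide methyl viologen.

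The cluster spans chr2:12617936-12632538 (TAIR10.1 assembly, RefSeq annotation), or 14.6 kb, and its 7 genes all lie on the minus strand. GSTU1 comes first in the direction of transcription and GSTU7 last, and 6 other annotated genes overlap the same interval, wholly or in part. GSTU19 lies at chr1:29486387-29488007 on the minus strand. GSTU24 (chr1:5869543-5870883) and GSTU25 (chr1:5872024-5873124) are neighbours on the plus strand, 1140 bp apart. Each of the 10 genes has 2 exons. The coding sequences of GSTU1 and GSTU2 were the most alike, at 85.5% identity, and those of GSTU24 and GSTU25 were 79.4% identical. No stretch longer than 42 nt was identical between any pair of the 10, here between GSTU2 and GSTU4. A search of the exons against the genome found 1 near copy of at least 100 nt at 90% identity or more, 106 nt of GSTU6 at 94.3%, where no gene is annotated. Exons of GSTU2, GSTU6 and GSTU7 overlap genes on the opposite strand, AT2G29485, AT2G29430 and AT2G29410, by 669, 398 and 52 bases, and GSTU7 also overlaps a long noncoding RNA, AT2G08340, by 559 bases, for which no counts were used here. The libraries were stranded, but whether counting used the strand is not given in the sources used here, so reads of these pairs may not be kept apart. In no library did AT2G29485 exceed 0.593 CPM, AT2G29430 exceed 7.09 CPM or AT2G29410 exceed 2.06 CPM (normalised counts per 1000000 counts of a library). AT2G29430 averaged 6.24 CPM in SA roots at 2 h and 1.19 CPM at 48 h, against 1.23 and 0.946 CPM in control roots, and was not tested. These low values cannot show whether reads in the shared bases were left uncounted. The levels and changes of GSTU2, GSTU6 and GSTU7 below carry this limit.

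The 300 bases before each annotated start were read from RefSeq's TAIR10.1 genome and searched on both strands for TGACG, the core bound by TGA factors. Of the 10 genes, 7 hold it, against 21.3% of the 27443 windows of this length before all protein-coding genes, and 3 of the 10 hold it at least 2 times, against 3.99% of all windows. GSTU1 and GSTU7 are printed because they hold it several times close to the start, GSTU25 because it holds it once and was higher with SA in both tissues, and GSTU4 and GSTU19 because they lack it and were higher with SA too. The windows are chr2:12632539-12632838 for GSTU1, chr2:12618900-12619199 for GSTU7, chr2:12627892-12628191 for GSTU4 and chr1:29488008-29488307 for GSTU19, all on the minus strand, and chr1:5871724-5872023 on the plus strand for GSTU25. They run 5′ to 3′ along the gene, with TGACG or its reverse complement CGTCA in capitals.
GSTU1: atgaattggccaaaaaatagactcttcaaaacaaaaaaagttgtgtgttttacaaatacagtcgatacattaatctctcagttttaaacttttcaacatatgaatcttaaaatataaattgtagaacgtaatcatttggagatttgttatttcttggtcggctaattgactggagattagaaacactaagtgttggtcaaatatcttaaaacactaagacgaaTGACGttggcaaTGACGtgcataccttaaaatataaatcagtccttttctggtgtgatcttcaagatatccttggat
GSTU7: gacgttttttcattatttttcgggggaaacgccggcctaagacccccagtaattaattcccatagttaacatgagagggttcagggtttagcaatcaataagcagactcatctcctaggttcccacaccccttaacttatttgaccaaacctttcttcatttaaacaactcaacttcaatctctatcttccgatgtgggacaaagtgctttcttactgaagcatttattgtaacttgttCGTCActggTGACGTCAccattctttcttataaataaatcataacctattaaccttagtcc
GSTU25: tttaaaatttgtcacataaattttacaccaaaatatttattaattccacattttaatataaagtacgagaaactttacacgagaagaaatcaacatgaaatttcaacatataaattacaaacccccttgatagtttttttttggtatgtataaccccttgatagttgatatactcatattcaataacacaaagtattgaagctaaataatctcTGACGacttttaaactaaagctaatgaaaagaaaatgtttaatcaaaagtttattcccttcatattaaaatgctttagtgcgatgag
GSTU4: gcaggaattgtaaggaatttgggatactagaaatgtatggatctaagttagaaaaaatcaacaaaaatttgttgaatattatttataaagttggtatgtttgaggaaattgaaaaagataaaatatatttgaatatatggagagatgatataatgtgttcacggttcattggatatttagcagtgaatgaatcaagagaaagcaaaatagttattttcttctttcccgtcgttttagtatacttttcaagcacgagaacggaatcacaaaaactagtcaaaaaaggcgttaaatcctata
GSTU19: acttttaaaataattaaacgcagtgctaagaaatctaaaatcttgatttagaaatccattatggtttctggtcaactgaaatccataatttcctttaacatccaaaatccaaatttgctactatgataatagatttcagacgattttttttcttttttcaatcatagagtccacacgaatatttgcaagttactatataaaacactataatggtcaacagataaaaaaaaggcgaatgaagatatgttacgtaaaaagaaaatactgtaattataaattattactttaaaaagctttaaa
In GSTU1 the matches begin 77 and 65 bases before the start, and in GSTU7 they begin 61, 52 and 49 bases before it, the last 2 overlapping in the palindrome TGACGTCA. GSTU25 holds its match 87 bases, GSTU3 105 bases, GSTU6 162 bases and GSTU24 169 bases before the start. The window of GSTU5 holds matches at 271 and 142 bases, and GSTU2 holds none. The windows of GSTU2, GSTU5 and GSTU24 overlap exons of neighbouring coding genes and are not printed; that of GSTU2 lies largely inside GSTU1, whose end is 19 bp away. ACGTG, the core of ABA response elements, was found in 3 windows of the 10 against 25.6% of all, and TTGAC, the core bound by WRKY factors, in 7 against 50.4%. These cores can overlap TGACG, and a match is a description of letters, not a binding site.

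Root libraries held between 5031509 and 102576624 counts and shoot libraries between 46189 and 221250466, with medians of 29711587 and 34621679. The lowest total belongs to 1 control shoot library at 7 h, replicate 1, and the next lowest shoot total is 5394870. In that library GSTU19 had 28 counts and no other member more than 1, so some results for shoots at 7 h are also given without it. Leaving it out, no member gained or lost a call in shoots at 7 h with ABA, with SA or in controls against 0 h. Of the known hormone-responsive genes, RAB18 and LTI65 were higher with ABA, and NIMIN1 with SA, at 6 of 6 times in both tissues, and PR1 was higher with SA at 4 of 6 in each. With SA, LTI65 was also higher in roots from 4 h on (log2 fold change up to 4.27) and in shoots from 7 h on. RAB18 was higher with SA in roots at 48 h (2.83) and in shoots at 24 and 48 h, and lower in shoots at 2 and 7 h. PR1 was higher with ABA in roots at 24 h (4.02). At 0 h, each of 5 shoot markers reached at most 0.0769% of its shoot level in roots, and 5 root markers stood at 0.76% to 8.5% of their root level in shoots. Replicates are described as biological replicates of separate samples, and p-values measure the spread between them. In shoots, same-numbered samples deviated together (mean r of 0.375, against -0.181 for different numbers). The p-values for shoots leave out what such samples share. The control libraries of a tissue serve both hormones, so the ABA and SA comparisons with control are not independent of each other.

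Before transfer the 10 genes spanned a wide range of levels (the plot of levels at 0 h). Per kb of exon, GSTU19 stood highest in both tissues, at 1092 ± 95.5 CPM per kb in roots and 560.3 ± 17.2 CPM per kb in shoots (SD, n = 4 each). In roots it was followed by GSTU25 (280.4 ± 22.0), GSTU24 (173 ± 18.6), GSTU7 (106 ± 11.5) and GSTU1 (65.0 ± 4.81 CPM per kb), none of whose ranges overlapped. Below them came GSTU5 (18.2 ± 1.41) and GSTU6 (18.0 ± 1.49), which overlapped, then GSTU2 (13.6 ± 1.103), GSTU4 (9.39 ± 1.48) and GSTU3 (0.130 ± 0.0770 CPM per kb). In shoots GSTU5 was second, at 97.2 ± 8.54 CPM per kb, ahead of GSTU7 at 45.8 ± 5.54. The ranges of GSTU24 (10.8 ± 1.40) and GSTU1 (8.28 ± 2.76) overlapped, as did those between neighbours from GSTU25 (3.40 ± 1.19) through GSTU4 (2.41 ± 0.369) and GSTU2 (1.64 ± 0.539) to GSTU6 (1.41 ± 0.111). GSTU3 was lowest, at 0.0676 ± 0.0221 CPM per kb.

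**Figure D1:**
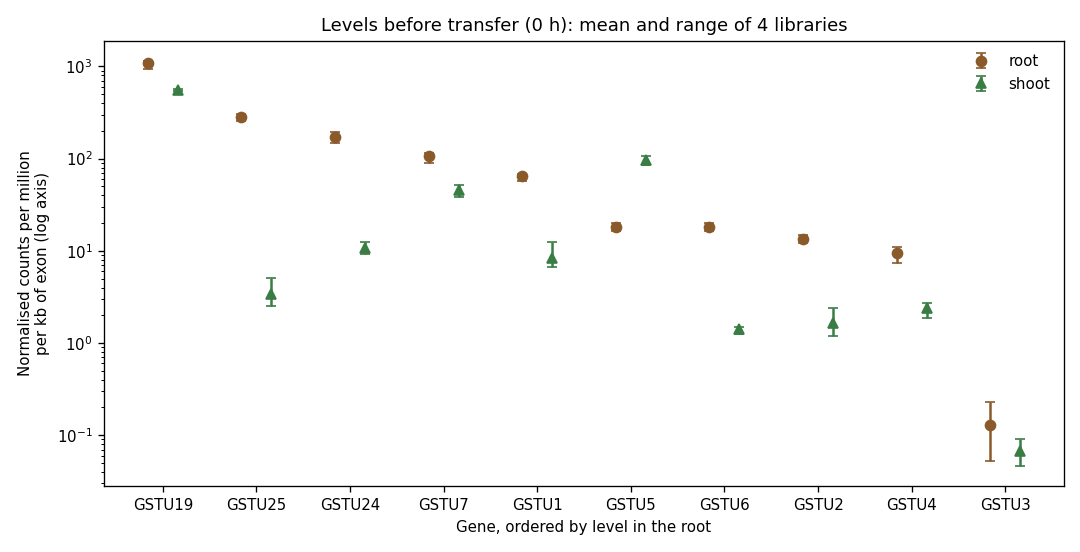
Levels of the 10 genes at 0 h in roots (circles) and shoots (triangles), in CPM per kb of exon on a log axis, as the mean and the range of 4 libraries. GSTU5 alone lies higher in shoots, and GSTU25 shows the widest gap between the tissues.

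Of the 10 genes, 8 were higher in roots than in shoots at 0 h, against 38.1% of all 22322 genes tested, and GSTU5 was lower, against 42.2% (edgeR quasi-likelihood test, Benjamini-Hochberg adjusted, on a scale common to both tissues). GSTU25 differed most, with a log2 ratio of root to shoot of 6.43 ± 0.28 (SE, adjusted p = 9.23e-37). GSTU24 followed at 4.00 ± 0.18, and GSTU6 at 3.68 ± 0.19, then GSTU2 and GSTU1 with log2 ratios of 3.13 and 3.00. The ratios were smaller for GSTU4 (1.98), GSTU7 (1.21) and GSTU19 (0.96). For GSTU5 the log2 ratio was -2.42 ± 0.13 (adjusted p = 8.84e-32 in the same edgeR test). GSTU3 was not called (0.99 ± 0.57), and its libraries overlapped. GSTU25 averaged 285 ± 22.3 CPM in roots and 3.45 ± 1.21 CPM in shoots (SD, n = 4 each), a gap like that of the root marker PIN2, at 151.8 CPM in roots and 2.30 CPM in shoots, and the part of root tissue in the shoot value was not tested.

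The control plants show what the genes did after transfer with no hormone. In roots at 0 h the 4 libraries held 15.7, 16.3, 14.1 and 16.9 CPM of GSTU2. The libraries held 29.0, 27.9 and 32.4 CPM at 1 h, 62.7, 51.6 and 67.2 CPM at 2 h, 53.6, 49.8 and 42.7 CPM at 4 h, 93.2, 90.1 and 96.6 CPM at 7 h, 28.4, 31.5 and 26.7 CPM at 24 h and 32.5, 25.6 and 30.5 CPM at 48 h. GSTU2 thus had a first maximum at 2 h and a higher one at 7 h, with the libraries of 7 h above those of all other times. This course is the value that drew attention to the family and carries no test. The same control libraries are the comparison for GSTU2 in ABA and SA roots below. Its calls there, and the counts of called genes that include it, are thus not independent of that choice. All of the other 9 genes were called over time in root controls, against 87% of all genes, by a joint edgeR test of the 6 later times against 0 h. All 9 were higher at 1 h, against 17.1% of all genes, at 2 h (24.8%) and at 4 h (14.7%). At 7 h 8 were higher (31.3% of all genes), at 24 h 7 (17.5%) and at 48 h 5 (17.7%), and none was lower at any time.

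The times of the maxima differed between the genes. GSTU19 had 4455, 4490.4 and 4176 CPM in root controls at 4 h, against 1549.8, 1556, 1308 and 1556 CPM at 0 h, a log2 fold change of 1.55 ± 0.076 (SE). The libraries did not overlap, and GSTU24 and GSTU25 were likewise highest at 4 h, with log2 fold changes over 0 h of 2.11 ± 0.11 and 1.79 ± 0.11. GSTU1 also was highest at 4 h (1.53), as was GSTU4 (1.13), and GSTU7 stood nearly alike at 2 h (1.75) and 4 h (1.75). GSTU5 and GSTU6 had their highest means at 1 h, with log2 fold changes of 1.69 ± 0.14 and 1.00 ± 0.16, and differed from 0 h by -0.07 and 0.19 at 24 h, where neither was called. In shoots 9 of the 10 genes were called over time, against 63.6% of all genes, GSTU3 being the exception. Higher than at 0 h were 8 at 1 h (8.71% of all genes), 7 each at 2 h (12.2%), 4 h (10.5%) and 7 h (14.8%), 8 at 24 h (17.9%) and 7 at 48 h (21.7%). GSTU24 in shoots changed most, to 110.4, 88.6 and 64.3 CPM at 2 h, against 12.2, 10.6, 9.57 and 8.84 CPM at 0 h, a log2 fold change of 3.10 ± 0.21. GSTU2 in shoots also had its highest control mean at 2 h, with a log2 fold change of 2.56 ± 0.21 over 0 h (adjusted p = 6.02e-13, edgeR). Without the shallow library, GSTU2 at 7 h in shoot controls was 1.99 (adjusted p = 1.68e-08) above 0 h on the log2 scale by edgeR.

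The library names of the controls carry different prefixes at different times, and time and prefix cannot be told apart between those blocks. Root controls of 0 and 1 h share a prefix, as do shoot controls of 0, 1 and 2 h. Comparisons with 0 h cross prefixes from 2 h on in roots and from 4 h on in shoots. Within the root times of 1 prefix (2, 4, 7 and 24 h), 8 of 9 genes were called, GSTU3 being the exception, against 74.2% of all genes. Within the shoot times of 1 prefix (4, 7 and 24 h), 6 of 10 were called, against 33.8%, and GSTU1, GSTU3, GSTU4 and GSTU19 were not.

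**Figure D2:**
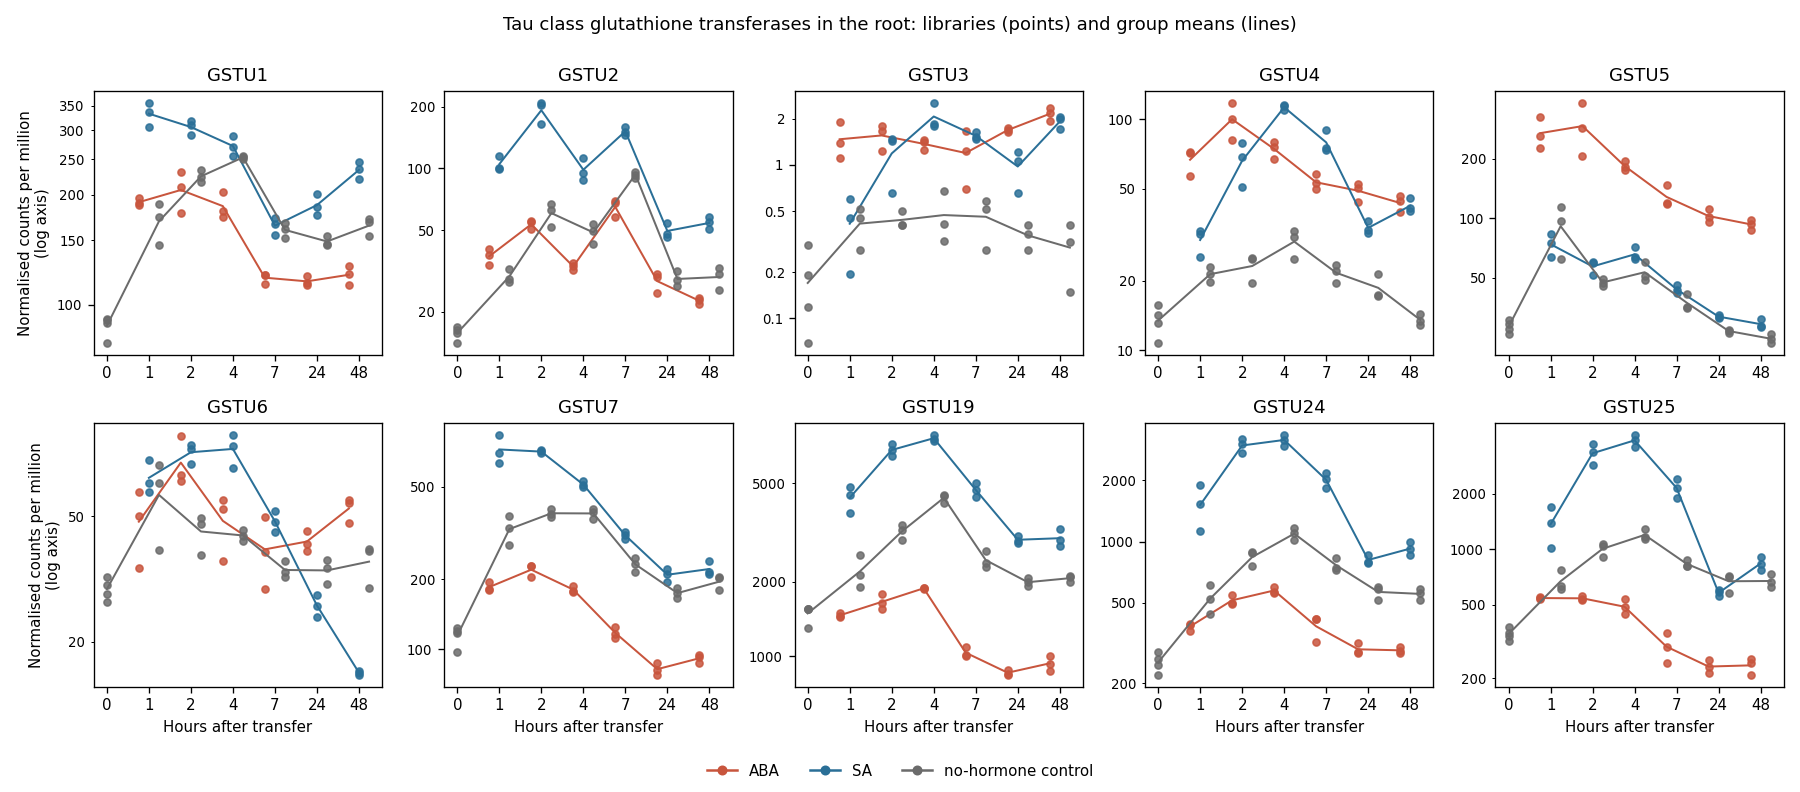
Normalised counts (CPM) of each gene in roots on a log axis, by hours after transfer, in ABA (red), SA (blue) and control plants (grey); points are libraries and lines join group means, with 0 h controls at the left. GSTU5 lies above the controls in ABA roots at all times, and GSTU19, GSTU24 and GSTU25 lie below them in ABA roots and above them in SA roots through 7 h.

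ABA divided the family in the root. GSTU3, GSTU4 and GSTU5, consecutive members of the cluster, were higher with ABA at all 6 times. GSTU7, at the end of the cluster, and GSTU19, GSTU24 and GSTU25 on chromosome 1 were lower at all 6 times. GSTU1 was lower from 4 h on, GSTU2 was higher at 1 h and lower at 4, 7 and 48 h, and GSTU6 was higher at 2 and 48 h. All 10 genes were called over the 6 times by the joint edgeR test, against 76.8% of the 21367 genes tested.

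GSTU5 gave the highest ABA response at 2 h, with 383, 287 and 205 CPM in ABA roots, against 49.5, 45.3 and 47.1 CPM in control roots. The ABA libraries all lay above the controls, and the log2 fold change was 2.63 ± 0.15 (SE, adjusted p = 6.51e-20, edgeR). At 48 h GSTU5 still had 87.4, 93.3 and 98.3 CPM in ABA roots, against 23.4, 25.8 and 24.4 CPM in control roots, a log2 fold change of 1.93 ± 0.16. GSTU4 also was most changed at 2 h, with 118, 100.6 and 81.5 CPM in ABA roots, against 19.6, 25.1 and 24.8 CPM in control roots. The groups of GSTU4 did not overlap at any time, and its log2 fold changes ran from 1.31 at 7 h to 2.12 at 2 h. GSTU3 was scarce, with 2.34, 1.94 and 2.17 CPM in ABA roots at 48 h, against 0.148, 0.407 and 0.314 CPM in control roots. Its log2 fold change was 2.84 ± 0.38 at that time, and its effect was not called as different between times (adjusted p = 0.206, edgeR).

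Among the genes lower with ABA than in controls, GSTU19 had 1088, 1016 and 1002 CPM in ABA roots at 7 h, against 2381, 2675 and 2290.2 CPM in control roots. Every ABA library lay below every control, and the log2 fold change was -1.24 ± 0.083 (adjusted p = 1.83e-17, edgeR). The difference from controls was larger for GSTU25, with 214, 229 and 252 CPM in ABA roots at 24 h, against 713, 721 and 583 CPM in control roots. Its log2 fold change was -1.54 ± 0.12 at 24 h and -0.30 ± 0.12 at 1 h, its largest and smallest effects, and the effect was called as different between times (adjusted p = 1.06e-07, edgeR). GSTU24 differed from the controls by log2 fold changes between -0.46 at 1 h and -0.998 at 7 h. GSTU7, in contrast, stood near the same log2 fold change throughout, from -0.81 ± 0.083 at 2 h to -1.09 ± 0.085 at 48 h, and its effect was not called as different between times (adjusted p = 0.0769, edgeR). All these effects are set against controls that themselves rose after transfer. In ABA roots GSTU24 averaged 574 CPM at 4 h and 291 CPM at 48 h, against 253 CPM at 0 h. GSTU19 averaged 1885 CPM at 4 h and 1035 CPM at 7 h, against 1492 CPM at 0 h. ABA roots were not tested against 0 h.

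GSTU1 and GSTU2 changed less. GSTU1 had 204, 180.0 and 174 CPM in ABA roots at 4 h, against 255, 253 and 251 CPM in control roots, a log2 fold change of -0.44 ± 0.077. For GSTU2 the ABA roots held 69.2, 67.6 and 57.9 CPM at 7 h, against 93.2, 90.1 and 96.6 CPM in control roots. The log2 fold change was -0.52 ± 0.10, measured against the control maximum that drew attention to the gene. The 7 h maximum of GSTU2 was thus present in ABA roots too, below that of the controls with no overlap. At 1 h GSTU2 was higher, with 33.7, 40.5 and 37.6 CPM in ABA roots, against 29.0, 27.9 and 32.4 CPM in control roots. GSTU6 reached 89.6, 67.5 and 64.6 CPM in ABA roots at 2 h, against 37.7, 47.2 and 49.1 CPM in control roots, a log2 fold change of 0.75 ± 0.17.

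By time, ABA roots had 4 of the 10 genes higher and 4 lower at 1 h, against 20.9% and 19.6% of all genes tested. At 2 h 4 were higher (26.4% of all genes) and 4 lower (26.2%). Both 4 h and 7 h had 3 higher, against 25.8% and 24.7% of all genes, and 6 lower, against 24.4% and 26.3%. At 24 h 3 were higher (21.1%) and 5 lower (18.3%), and at 48 h 4 were higher (17.4%) and 6 lower (14.7%). The median log2 fold change of the 10 genes lay between -0.50 at 4 h and -0.053 at 1 h, and that of all genes between -0.037 and -0.0041. The ABA effect differed between times for 8 of the 10 genes, against 43.7% of all genes, for 4 without replicate 1 of every group and for 4 without replicate 2.

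SA raised most of the family in the root, with log2 fold changes of up to 2.70 for the scarce GSTU3 and up to 1.83 for the abundant GSTU24. All 10 genes were called over the 6 times, against 92.6% of all genes tested. GSTU2, GSTU4, GSTU7, GSTU19 and GSTU24 were higher at 6 of 6 times. GSTU5 was not called at any single time, and GSTU6 was higher at 2, 4 and 7 h and lower at 48 h. The SA effect differed between times for 9 of the 10 genes, GSTU5 being the exception, against 81% of all genes.

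GSTU24 had 2720.3, 3009 and 3198 CPM in SA roots at 2 h, against 753, 888 and 874 CPM in control roots. The lowest SA library stood far above the highest control, and the log2 fold change was 1.83 ± 0.12 (SE, adjusted p = 3.16e-18, edgeR). GSTU25 reached 4191, 3928 and 3583 CPM in SA roots at 4 h, against 1289.6, 1166 and 1141 CPM in control roots, a log2 fold change of 1.70 ± 0.12. At 24 h GSTU25 was back at 558, 600.0 and 587 CPM in SA roots, against 713, 721 and 583 CPM in control roots, and was not called (-0.21 ± 0.12). GSTU19, already the most abundant, had 7879, 7559 and 7416 CPM in SA roots at 4 h, against 4455, 4490.4 and 4176 CPM in control roots. The log2 fold change of GSTU19 was 0.80 ± 0.082 at 4 h and largest at 2 h, at 1.09 ± 0.082.

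GSTU2 rose within 1 h, to 100.3, 115 and 99.3 CPM in SA roots, against 29.0, 27.9 and 32.4 CPM in control roots. Its log2 fold change was 1.82 ± 0.10 at 1 h and 0.70 ± 0.10 at 7 h, when the controls had their own maximum. Both values are measured against the control libraries that drew attention to the gene. The level in SA roots was 164, 203 and 209 CPM at 2 h, 112, 95.3 and 88.1 CPM at 4 h and 159, 150.3 and 146 CPM at 7 h. The dip at 4 h seen in the controls thus appeared in SA roots too, at about the level the controls had at their 7 h maximum. GSTU7 had 634, 699 and 839 CPM in SA roots at 1 h, against 281, 332 and 374 CPM in control roots. Its log2 fold change was largest at that time (1.14 ± 0.083) and 0.18 ± 0.083 at 48 h. GSTU1 was also raised most at 1 h (0.98 ± 0.077), was not called at 4 h (0.10 ± 0.076) or 7 h (0.038 ± 0.077), and was higher again at 48 h (0.50 ± 0.077).

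GSTU4 and GSTU3 had small SA effects at 1 h and larger ones later. GSTU4 had 114, 109 and 115 CPM in SA roots at 4 h, against 33.0, 30.9 and 24.9 CPM in control roots, and its log2 fold change was 1.93 ± 0.14 at 4 h and 0.49 ± 0.14 at 1 h. GSTU3 had 2.55, 1.85 and 1.80 CPM in SA roots at 4 h, against 0.679, 0.414 and 0.322 CPM in control roots, a log2 fold change of 2.15 ± 0.32, whereas at 1 h it stood at 0.045 ± 0.41 and was not called. GSTU5, the gene most raised by ABA at 2 h, had 51.4, 59.1 and 60.3 CPM in SA roots at 2 h, against 49.5, 45.3 and 47.1 CPM in control roots. The log2 fold change of GSTU5 stayed between -0.30 at 1 h and 0.30 at 4 h, and its joint call (adjusted p = 0.0114, edgeR) did not single out a time. GSTU6 fell at 48 h, to 16.2, 15.9 and 15.7 CPM in SA roots, against 39.3, 29.5 and 38.8 CPM in control roots, a log2 fold change of -1.18 ± 0.18.

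With SA, 7 of the 10 genes were higher in roots at 1 h, against 22.7% of all genes, 9 at 2 h (29.4%), 8 at 4 h (30.8%) and 8 at 7 h (27.9%). Later, 7 were higher at 24 h (32.1% of all genes) and 8 at 48 h (36.1%). No gene was lower at 1 h (22.5% of all genes), 2 h (32.1%), 4 h (30.8%), 7 h (30.4%) or 24 h (32.9%). GSTU6 alone was lower at 48 h, against 38.7% of all genes. The median log2 fold change of the 10 genes was 1.22 at 2 h and 0.43 at 24 h, and that of all genes was -0.031 and -0.0077. Replicates 2 and 3 of the SA roots at 24 h carry another library-name prefix than replicate 1 and the controls. With replicate 1 alone, whose spread was taken from the other groups, 5 genes were higher at 24 h, and GSTU3 and GSTU7 were no longer called, at 0.89 (adjusted p = 0.228) and 0.19 (adjusted p = 0.192) on the log2 scale by edgeR.

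**Figure D3:**
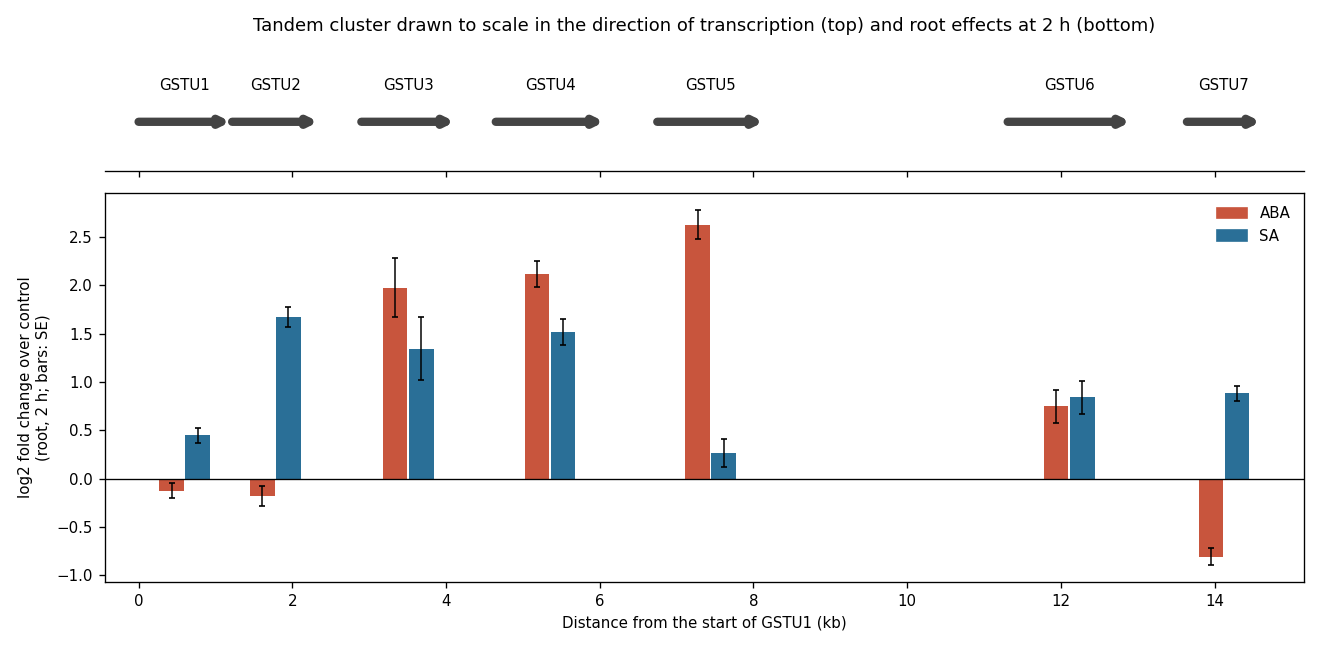
Top, the 7 genes of the cluster drawn to scale along their direction of transcription, by distance in kb from the start of GSTU1; bottom, the log2 fold change of each gene in roots at 2 h with ABA (red) and SA (blue) over control, with standard errors. GSTU5 stands at 2.63 with ABA and 0.26 with SA, whereas GSTU2 stands at -0.18 and 1.67, and GSTU7 at -0.81 and 0.88.

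Within the cluster at 2 h the ABA effect was highest on GSTU5 and lowest on GSTU7, while the SA effect was highest on GSTU2 and lowest on GSTU5. ABA and SA roots were also compared directly, without control libraries. All 10 genes differed over the 6 times, as did 94.7% of all genes. GSTU5 was higher in ABA than in SA roots at every time, with log2 ratios from 1.48 at 4 h to 2.36 at 2 h. GSTU1, GSTU2, GSTU7, GSTU19, GSTU24 and GSTU25 were lower in ABA than in SA roots at every time, and GSTU25 most, with 536, 488 and 444 CPM in ABA roots at 4 h, against 4191, 3928 and 3583 CPM in SA roots. The log2 ratio of ABA to SA was -2.995 ± 0.13 for GSTU25 at that time (adjusted p = 9.02e-25, edgeR). GSTU4 changed sides, higher in ABA roots at 1 h (1.15 ± 0.13), lower at 4 h (-0.60 ± 0.13) and higher again at 24 h (0.53 ± 0.13). GSTU3 did likewise, with 1.74 at 1 h, -0.60 at 4 h and 0.73 at 24 h, and GSTU6 was lower in ABA roots at 1 and 4 h and higher at 24 and 48 h, where it stood at 1.73 ± 0.18. Of the SA roots at 24 h, replicates 2 and 3 carry another library-name prefix than the ABA roots.

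The shoot gave fewer calls with ABA. GSTU5 and GSTU4 were higher and GSTU25 and GSTU7 were lower, in each case at several times, and GSTU1, GSTU6 and GSTU24 were not called at any time in the edgeR fit to all shoot groups. With a replicate block in that fit, GSTU1 was called at 2 and 48 h and GSTU24 at 2 and 4 h. In the joint test 7 of the 10 genes were called, against 50.1% of the 21263 genes tested, and 4 were called without replicate 2 of every group.

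GSTU5 had 237, 228 and 199 CPM in ABA shoots at 2 h, against 125, 119 and 110.0 CPM in control shoots. The groups did not overlap, and the log2 fold change was 0.91 ± 0.12 (adjusted p = 5.55e-08, edgeR), the largest of its 6 times. GSTU4 had 14.5, 11.2 and 16.4 CPM in ABA shoots at 4 h, against 4.15, 5.85 and 4.40 CPM in control shoots, a log2 fold change of 1.54 ± 0.28. The fall of GSTU25 was clearest at 48 h, with 1.02, 1.16 and 0.689 CPM in ABA shoots, against 5.61, 3.38 and 4.83 CPM in control shoots, a log2 fold change of -2.26 ± 0.45. GSTU7 had 68.5, 71.0 and 67.5 CPM in ABA shoots at 2 h, against 139.7, 113 and 86.9 CPM in control shoots, with no overlap and a log2 fold change of -0.71 ± 0.16. GSTU19 was called at 2 h alone, at -0.34 ± 0.11, and GSTU2 likewise, at -0.53 ± 0.21 (adjusted p = 0.0485, edgeR). The call of GSTU19 was lost without replicate 2 and without replicate 3. That of GSTU2 was lost without replicate 1, without replicate 2, with only the groups compared and under DESeq2, with log2 fold changes between -0.74 and -0.25 over all alternatives. GSTU3 was called at 24 h alone, where its 3 ABA libraries summed to 49 counts, against 8 counts in the 3 controls, and the call was lost without replicate 2.

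In ABA shoots 2 genes were higher at 1 h (14.5% of all genes) and 2 lower (10.9%), and at 2 h 2 were higher (16.4%) and 4 lower (14%). At 4 h 2 were higher (12.9%) and 1 lower (14.7%), and at 7 h GSTU5 alone was higher (8.47%) and none was lower (8.98%). At 24 h 3 were higher (9.97%) and 1 lower (8.62%), and at 48 h 1 was higher (7.79%) and 2 lower (7.46%). Without replicate 2 of every group 1 gene was called at 1 h, 2 at 2 h, none at 7 h, 1 at 24 h and 1 at 48 h. Without replicate 1 the counts were 3 at 7 h and 6 at 48 h, and without replicate 3 the count was 2 at 1 h. A replicate block gave 6 called genes at 4 h, 3 at 7 h and 6 at 48 h. Without the shallow library alone, GSTU5 at 7 h stood at 0.56 (adjusted p = 0.000794) on the log2 scale by edgeR. The ABA effect differed between times for 1 of the 10 genes, GSTU5 (adjusted p = 0.0403, edgeR), against 15.2% of all genes, for 2 without replicate 1, and for none without replicate 2, without replicate 3 or under DESeq2.

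**Figure D4:**
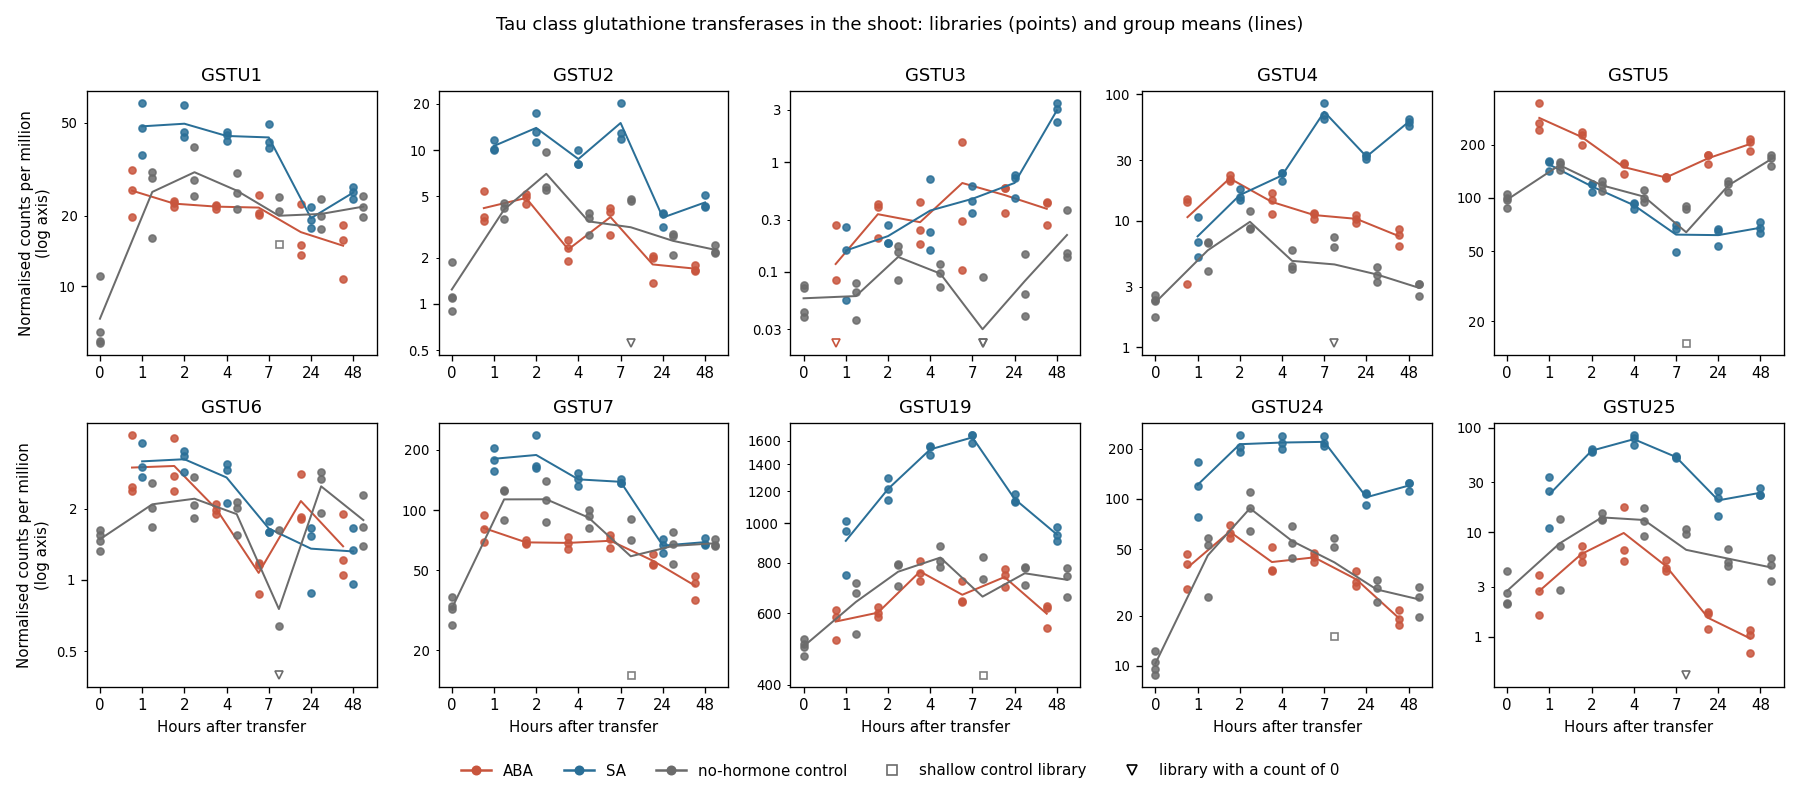
Normalised counts (CPM) of each gene in shoots on a log axis, by hours after transfer, in ABA (red), SA (blue) and control plants (grey); points are libraries, lines join group means, open squares mark the shallow control library at 7 h and open triangles at the lower edge mark libraries with a count of 0. The SA means of GSTU24, GSTU25 and GSTU19 lie above the control means at all times, GSTU4 lies above the controls in SA shoots from 4 h on, and GSTU5 lies below the controls in SA shoots at 24 and 48 h.

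SA gave calls for all 10 genes in the shoot, most of them higher. GSTU19, GSTU24 and GSTU25 were higher at 6 of 6 times, GSTU1 and GSTU7 at the first 4 times, and GSTU2 at every time except 24 h. GSTU3 and GSTU4 were higher from 4 h on. GSTU5 was lower from 7 h on, and GSTU6 was lower at 24 h. The joint test over the 6 times called all 10, against 70.7% of all genes tested.

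GSTU4 changed most, with 64.1, 60.7 and 56.3 CPM in SA shoots at 48 h, against 2.53, 3.13 and 3.16 CPM in control shoots. The groups lay far apart, and the log2 fold change was 4.36 ± 0.30 (adjusted p = 6.21e-17, edgeR). At 2 h GSTU4 was not called, with 17.7, 14.6 and 15.5 CPM in SA shoots, against 12.02, 8.75 and 8.60 CPM in control shoots. Its neighbour GSTU3 had 3.04, 2.34 and 3.48 CPM in SA shoots at 48 h, against 0.149, 0.137 and 0.364 CPM in control shoots, a log2 fold change of 3.74 ± 0.50. Those values rest on 249 counts of GSTU3 in the 3 SA libraries, against 22 counts in the 3 controls. GSTU24 had 124, 125 and 112 CPM in SA shoots at 48 h, against 29.5, 19.7 and 25.9 CPM in control shoots, a log2 fold change of 2.27 ± 0.23.

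GSTU25, scarce in untreated shoots, reached 79.6, 86.2 and 67.9 CPM in SA shoots at 4 h, against 12.9, 17.2 and 9.17 CPM in control shoots. Its log2 fold change was 2.57 ± 0.35 at 4 h (adjusted p = 1.25e-07, edgeR), and its effect was not called as different between times (adjusted p = 0.424, edgeR). The summed level of the 5 root markers ran from 3.55 to 13.0 CPM in SA shoots, from 2.01 to 45.4 CPM in ABA shoots and from 0 to 16.3 CPM in control shoots. In roots the median of that sum was itself 195 CPM with SA and 281 CPM in controls. The part of root tissue in the shoot values of GSTU25 was not tested. GSTU19 had 1655, 1578 and 1655 CPM in SA shoots at 7 h, against 424, 825 and 731 CPM in control shoots, of which the lowest is the shallow library. The log2 fold change of GSTU19 was 1.19 ± 0.11, and 1.07 (adjusted p = 2.26e-11) without that library by edgeR. GSTU2 had 20.3, 11.8 and 12.9 CPM in SA shoots at 7 h, against 0, 4.64 and 4.81 CPM in control shoots, and stood at 1.66 (adjusted p = 7.17e-07) without the shallow library by edgeR.

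GSTU5 went the other way, with 63.4, 72.7 and 67.2 CPM in SA shoots at 48 h, against 152, 167 and 175 CPM in control shoots. Every SA library lay below every control, and the log2 fold change was -1.28 ± 0.12 (adjusted p = 1.54e-12, edgeR). At 24 h GSTU5 had a log2 fold change of -0.94 ± 0.12. GSTU6 at 24 h had 1.53, 0.882 and 1.66 CPM in SA shoots, against 1.92, 2.87 and 2.67 CPM in control shoots, a log2 fold change of -0.88 ± 0.26. GSTU7 had 157, 178 and 205 CPM in SA shoots at 1 h, against 88.9, 126 and 124 CPM in control shoots, a log2 fold change of 0.67 ± 0.16. At 24 and 48 h its log2 fold changes were 0.0052 and 0.02.

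At 1 h 6 genes were higher in SA shoots, against 0.578% of all genes, and none was lower (0.277%). At 2 h 6 were higher (5.31%) and none lower (1.97%), though SA and control shoots of 2 h carry different library-name prefixes and the hormone and the prefix cannot be told apart there. At 4 h 8 were higher (14%) and none lower (8.83%), and at 7 h 8 were higher (20%) and 1 lower (17.7%). At 24 h 5 were higher (29.3%) and 2 lower (30.4%), and at 48 h 6 were higher (32%) and 1 lower (32.9%). The median log2 fold change of the 10 genes was 1.11 at 4 h and 0.70 at 48 h, and that of all genes was -0.0083 and -0.0071. Without replicate 2 of every group 2 genes were called at 1 h, 3 at 2 h and 5 at 4 h, without replicate 3 there were 3 at 1 h, and with only the groups compared in the fit there was 1 at 1 h. The SA effect differed between times for 9 genes, all but GSTU25, against 55.4% of all genes, for 4 without replicate 2 and for 5 without replicate 3.

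Compared directly, ABA and SA shoots differed for 9 of the 10 genes over the 6 times, GSTU6 being the exception, and for 82.6% of all genes. GSTU5 was higher in ABA than in SA shoots at every time, by log2 ratios from 0.72 at 4 h to 1.58 at 48 h. GSTU2, GSTU19, GSTU24 and GSTU25 were lower in ABA than in SA shoots at every time. The ratio was widest for GSTU25 at 48 h, with 1.02, 1.16 and 0.689 CPM in ABA shoots, against 22.7, 22.6 and 26.3 CPM in SA shoots, a log2 ratio of -4.63 ± 0.44. GSTU1 and GSTU7 were lower in ABA shoots at every time except 24 h, GSTU4 was lower from 4 h on, and GSTU3 was lower at 48 h alone (-2.94 ± 0.46). At 2 h the ABA and SA shoots carry different library-name prefixes, and the hormone and the prefix cannot be told apart there either.

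**Figure D5:**
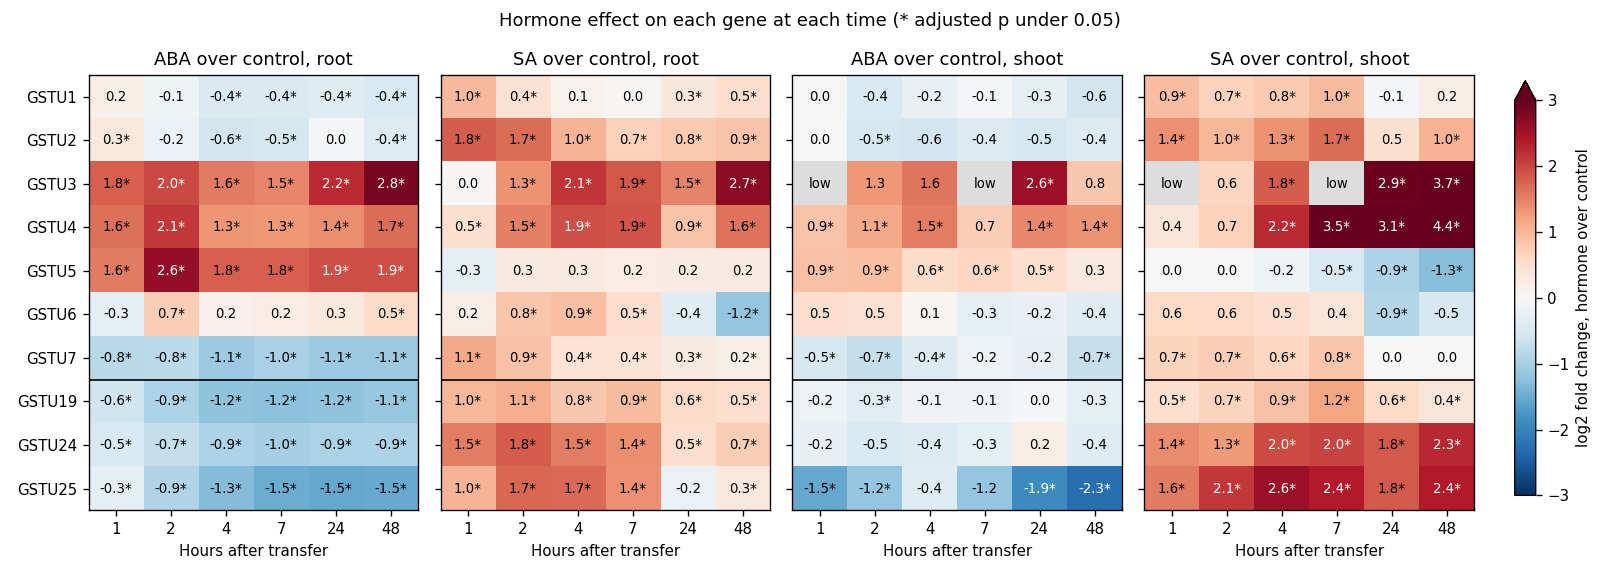
Log2 fold change of each gene (rows, the cluster above the line) over the control of the same time with ABA or SA in roots and shoots, by hours after transfer; an asterisk marks an adjusted p under 0.05 and "low" a control group in which no library exceeded 3 counts. GSTU5 is raised by ABA at all times in roots and, except at 48 h, in shoots, and GSTU3 and GSTU4 reach log2 fold changes of 3.74 and 4.36 with SA in shoots at 48 h.

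Whether root and shoot differed in response was tested in 1 fit to both tissues, whose differences need not equal those between the values of the separate fits. The ABA effect differed between the tissues for 7 of the 10 genes over the 6 times, against 38.3% of the 22322 genes tested, and for 3 without replicate 2 of every group. GSTU5 differed most clearly (adjusted p = 5.91e-23, edgeR): its log2 fold change was 1.93 in roots and 0.29 in shoots at 48 h, a difference of 1.65 ± 0.20 (SE). GSTU19 came next (adjusted p = 4.75e-18, edgeR), with log2 fold changes of -1.22 in roots and -0.031 in shoots at 24 h, a difference of -1.19 ± 0.16. GSTU7, GSTU24, GSTU6, GSTU4 and GSTU25 were called as well, and GSTU1, GSTU2 and GSTU3 were not.

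The SA effect differed between the tissues for 8 genes, against 72.1% of all genes, and for 4 without replicate 2. GSTU4 at 48 h had a log2 fold change of 1.63 in roots and 4.36 in shoots, a difference of -2.54 ± 0.33 (adjusted p = 2.01e-10, edgeR). GSTU5 at 48 h stood at 0.25 in roots and -1.28 in shoots, a difference of 1.72 ± 0.20 (adjusted p = 6.86e-12, edgeR). GSTU24 and GSTU25 also were raised more in shoots at 48 h, by differences of root minus shoot of -1.33 ± 0.25 and -1.86 ± 0.38. At 2 h the differences of these 2 genes were 0.52 ± 0.25 and -0.43 ± 0.35 and were not called, and the SA shoots of 2 h differ from their controls in library-name prefix. GSTU1, GSTU2, GSTU7 and GSTU19 were called over the 6 times as well, and GSTU3 (adjusted p = 0.258) and GSTU6 (0.0961) were not, by edgeR.

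Other genes of the glutathione pathway were counted from lists. Of the 18 other tau class genes, 17 passed the filter in each tissue. In roots at 4 h, 4 of the 17 were higher and 11 lower with ABA, with a median log2 fold change of -0.50, and 8 were higher and 6 lower with SA, with a median of -0.0030, where the medians of all genes were -0.0078 and -0.0046. Over all genes at that time, 25.8% were higher and 24.4% lower with ABA, and 30.8% were higher and 30.8% lower with SA. In roots at 7 h GSTU9 rose most with ABA, with 204 ± 23.6 CPM in ABA roots, against 47.3 ± 4.68 CPM in control roots (SD, n = 3 each). GSTU14 fell most with SA, with 7.70 ± 1.14 CPM in SA roots, against 32.5 ± 2.32 CPM in control roots. In shoots at 48 h 8 of the 17 were higher and 7 lower with SA, against 32% and 32.9% of all genes. GSTU11 had 22.6 ± 3.84 CPM in SA shoots, against 0.208 ± 0.123 CPM in control shoots, a log2 fold change of 6.76 ± 0.53. GSTU17, linked to ABA and drought responses, had 276 ± 46.0 CPM in ABA shoots at 2 h, against 92.2 ± 15.5 CPM in control shoots, a log2 fold change of 1.58 ± 0.18 (adjusted p = 1.79e-09, edgeR).

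Of 13 phi class genes, the other large plant-specific class, 12 passed the filter. In roots at 7 h 1 of the 12 was higher with ABA and 11 lower, against 24.7% and 26.3% of all genes, with a median log2 fold change of -1.06, where that of all genes was -0.023. GSTF11, which acts in glucosinolate synthesis and overlaps AT3G03200 on the opposite strand by 934 bases, fell most, to 0.431 ± 0.163 CPM in ABA roots, against 7.53 ± 0.572 CPM in control roots. With SA at 48 h 4 were higher and 7 lower in roots, against 36.1% and 38.7% of all genes. GSTF2, which overlaps AT4G02510 on the opposite strand by 890 bases, rose to 1073 ± 56.7 CPM in SA roots, against 138 ± 4.94 CPM in control roots, a log2 fold change of 2.96 ± 0.14. In shoots at 4 h 6 were higher and 2 lower with SA, against 14% and 8.83% of all genes. GSTF8, long used as a model of SA-responsive transcription, had 1020.0 ± 30.5 CPM in SA shoots, against 349 ± 32.3 CPM in control shoots.

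Of 8 genes of glutathione handling, all 8 passed the filter. In roots at 2 h 2 were higher and 5 lower with ABA, against 26.4% and 26.2% of all genes, with a median log2 fold change of -0.25 (all genes -0.037). With SA 6 were higher and 2 lower, against 29.4% and 32.1% of all genes, with a median of 0.52 (all genes -0.031). ABCC2 and ABCC1, transporters that carry glutathione conjugates into the vacuole, had 1087 ± 11.3 and 1048 ± 91.4 CPM in SA roots, against 449 ± 33.9 and 495 ± 36.9 CPM in control roots. GGCT2;1, which breaks glutathione down, fell most with ABA, to 1.29 ± 0.590 CPM in ABA roots, against 9.23 ± 0.943 CPM in control roots. In shoots at 48 h GGT4, which degrades glutathione conjugates in the vacuole, had 43.0 ± 1.93 CPM in SA shoots, against 19.0 ± 2.66 CPM in control shoots, and GR2, a glutathione reductase of the organelles, had 209.8 ± 3.20 CPM in SA shoots, against 362 ± 9.77 CPM in control shoots.

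Across the 19 root groups the courses of the members were set against each other and against all genes tested, by Pearson's r of log2(CPM + 0.5) over pooled counts. The groups share libraries with the comparisons above, and r is given as a description. GSTU19 and GSTU25 were the most alike pair among the members (r = 0.97), followed by GSTU24 with GSTU25 (r = 0.97) and GSTU19 with GSTU24 (r = 0.96). GSTU3 and GSTU4 also ran alike (r = 0.88), and the most unlike pair was GSTU5 and GSTU19 (r = -0.36). The gene most like GSTU7 was UGT73B3 (r = 0.98) and that most like GSTU1 was UGT73B2 (r = 0.90), both glucosyltransferases. For GSTU5 it was JAZ1, a repressor of jasmonate signalling (r = 0.96), and for GSTU4 it was NSP5, a nitrile specifier protein (r = 0.96). GSTU2 was most like RBL6, a rhomboid-like protease (r = 0.95), GSTU3 most like MSS1, a sugar transporter (r = 0.92), and GSTU6 most like ASL5, of the LOB domain family (r = 0.87).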

How the data were processed

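Poly(A) RNA of roots and shoots was sequenced in 58 libraries of each tissue, in 38 groups. The values are read counts per gene, as deposited and not normalised. Per the submitters' processing notes, HISAT2 and featureCounts were used with the TAIR10 build, and their settings are not given in the sources used here, including how reads of several genes or of the opposite strand were counted. Counts were fitted as deposited with edgeR 4.0.16 (R 4.3.3) by quasi-likelihood tests on group means, after TMM scaling and filterByExpr, which left 21367 genes in roots, 21263 in shoots and 22322 in both. All groups of a tissue shared 1 estimate of the spread, and p-values were adjusted by Benjamini-Hochberg over all genes tested, with 0.05 as the threshold. Joint tests covered the 6 times, and root and shoot responses were compared by an interaction in 1 fit to both tissues. Normalised counts (CPM) are on the scale of each tissue's fit, except levels at 0 h, which are on a common scale. Standard errors are the log2 fold change divided by the square root of F. Promoter windows of 300 bases and near copies (blastn 2.17.0) came from the RefSeq TAIR10.1 annotation. On simulated counts, 200 of 200 genes changed by a fold of 4 were recovered for SA in roots at 4 h among 20883 genes, with 6 others called. For the SA interaction at 4 h, 192 of 200 were recovered among 21904 genes, with 12 others called. The simulated libraries were drawn independently of each other, and neither smaller changes nor a fit to shoots alone were simulated.

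No replicate pair of the 60 in each tissue held identical values. The genes and lists were chosen with earlier results of these data known. All 10 genes entered every comparison (GSTU2 over time in root controls as a description). For each list, tissue and hormone, the genes named come from the 2 largest and the 1 smallest log2 fold changes among genes called jointly, at the time with the most list genes called. The gene most like a member is that with the highest Pearson r of log2(CPM + 0.5) over 19 root groups. Alternatives were DESeq2 1.42.0, its size factors, no filter, only the groups compared, a replicate block, each replicate number left out, and fits without libraries under 1000000 counts or of another library-name prefix. Fits over control times of 1 prefix were chosen after seeing the data.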

Additional observations from a re-analysis of the deposited data

Results flagged for a closer look

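Within the 4 control libraries at 0 h, 1 library stood apart from the rest for GSTU19 in roots, where its gap to the nearest library was 0.976 of the whole range, and for GSTU1 in shoots, where it was 0.879. Both pass Dixon's 95% critical value for 4 samples, and chance passes about 1 in 20 groups, of which 20 were checked.

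The ABA effect differed between roots and shoots by the joint interaction test in edgeR for GSTU5 (adjusted p = 5.91e-23), GSTU19 (4.75e-18), GSTU7 (2.89e-07) and GSTU24 (0.000158). It also differed for GSTU6 (0.00899), GSTU4 (0.0128) and GSTU25 (0.0143). The SA effect differed between roots and shoots by the same test for GSTU5 (adjusted p = 2.97e-15), GSTU4 (2.56e-14), GSTU25 (2.43e-08) and GSTU24 (9.1e-08). The adjusted p was 0.000488 for GSTU2, 0.000628 for GSTU1, 0.00771 for GSTU19 and 0.0167 for GSTU7.

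Effects that differed between the 6 times were found in roots for 8 genes with ABA (43.7% of all genes) and 9 with SA (81%). In shoots they were found for 1 gene with ABA (15.2%) and 9 with SA (55.4%).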

How the results depend on the processing

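Of 328 counts of called genes recomputed under alternatives, 295 stayed within 1.5 times the reported count and 33 did not. Of 4891 log2 fold changes of the 10 genes, 4649 kept their side of the threshold, 156 lost a call and 86 gained one. The direction turned for 64 values that were called in neither fit and for 0 that were called in either. With ABA in shoots, a replicate block gave 6 genes called at 4 h, 3 at 7 h, 6 at 48 h and 2 with an effect that differed between times. With only the groups compared, 1 gene was called for ABA in shoots at 1 h, 3 at 7 h and 5 at 48 h, and 1 for SA in shoots at 1 h. The ABA effect in shoots differed between times for 0 genes with DESeq2, with its size factors and with no filter. The cause was not tested. That block called GSTU1 with ABA in shoots at 2 and 48 h and GSTU24 at 2 and 4 h. Same-numbered samples deviated together in shoots, with a mean r of 0.375 (45 of 48 over 0.1, lowest -0.0171) against -0.181 for different numbers, and less in roots, with 0.0805 (25 of 54 over 0.1) against -0.0402. As not every pair exceeded 0.1 and the labels name no shared source, the fit without the block was kept. Its p-values in shoots therefore leave out what same-numbered samples share.

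Leaving out each replicate number in turn gave 4 to 9 genes with an ABA effect that differed between times in roots and 0 to 2 in shoots, and 4 to 7 for SA in shoots. For ABA in shoots it gave 4 to 8 genes in the joint test, 1 to 4 at 1 h, 2 to 5 at 2 h, 2 to 4 at 4 h, 0 to 3 at 7 h, 1 to 4 at 24 h and 1 to 6 at 48 h. For SA in shoots it gave 2 to 6 at 1 h, 3 to 7 at 2 h and 5 to 8 at 4 h. The interaction was called for 3 to 6 genes with ABA and 4 to 8 with SA.

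Depth limited GSTU3 in shoots: its 3 control libraries held 1 to 2 counts each at 1 h and 0 to 3 at 7 h, against 28 counts in all with SA and 18 with ABA at 7 h. A count of 0 in the shallow control library allowed up to 45.4 CPM (3 counts, counting error only).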
